A study of Mus musculus with 6 samples.

Results

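Interferon-inducible GTPases of the guanylate-binding protein (GBP) and immunity-related GTPase (IRG) families were examined as 10 genes: Gbp2, Gbp3, Gbp5, Gbp6, Gbp7 and Gbp9 of the GBP family, and Iigp1, Irgm1, Irgm2 and Igtp of the IRG family. They were taken by symbol from the 16871 genes present in at least 1 library, with NCBI gene numbers matched to mouse symbols. All 10 were present in every library and all passed the filter on low counts. RNA sequencing was done on macrophages grown for 7 days from the bone marrow of 8-week-old C57BL/6 mice and then exposed to oxLDL, the oxidised form of low-density lipoprotein that macrophages of arterial plaques take up. Cells of the control group (LKO, 3 libraries) carried a knockout of the LDL receptor. Cells of the other group (DKO, 3 libraries) carried the same LDL receptor knockout together with a knockout of ALDH2, the mitochondrial aldehyde dehydrogenase. Both groups therefore lacked the LDL receptor and both were given oxLDL, and neither cells without oxLDL nor cells with an intact LDL receptor are among the groups. The labels give no dose or duration for oxLDL and leave unsaid whether each library had its own animal, so every p-value here is set by the spread among 3 libraries a group, which may be technical.

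Interferons are secreted proteins that bind receptors on the macrophage, switch on transcription factors, among them those of the IRF family, and through them a large set of genes, of which GBP and IRG genes are among the most strongly inducible in mouse macrophages. GBP proteins are large GTPases that assemble on the membranes of microbes and of the vacuoles around them and promote cell-autonomous killing and inflammasome activation. IRG proteins are smaller GTPases in which Irgm1, Irgm2 and Igtp (also called Irgm3) sit on the cell's own membranes and restrain effectors such as Iigp1 (Irga6), which load onto the vacuole. Both families are induced by interferon-gamma, and many of their members also by type I interferons.

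The DNA motifs read by these factors are the interferon-stimulated response element, bound by IRF proteins and complexes that contain IRF9, and the gamma-activated site, through which interferon-gamma acts on many of its targets. The sequences upstream of member start sites are shown first because Irgm2 and Igtp, neighbours with alike motifs, differed in how their transcripts moved. RefSeq promoter sequences (GRCm38.p6, 250 bases before to 50 after the start) were searched for 7 of the 10 members. No sequence was matched to Gbp6 or Gbp9, and Iigp1, the member that rose most, was left out of the search. These sequences are of the reference strain and not of the libraries. Both strands were searched for the core of the interferon-stimulated response element, GAAA followed after any 2 bases by another GAAA, and for the gamma-activated site, TTCNNNGAA; the 2 patterns were searched separately and matches were allowed to overlap. All 7 searched members held the first motif and 4 of them, Gbp5, Gbp7, Irgm2 and Igtp, held the second. Among 32851 promoters of the same length, 3.44% held the first motif and 8.30% the second. The lines below give the 200 bases before the start of 5 members, 5′ to 3′ on the gene's strand, with the matched motifs in capitals. Irgm2 and Igtp are neighbours of which only the first passed the test. Gbp7 and Gbp3 are neighbours with fold changes of opposite sign, and Irgm1 rose most among the members whose promoter was searched.
Irgm2 (chr11:58214777-58214976, plus strand): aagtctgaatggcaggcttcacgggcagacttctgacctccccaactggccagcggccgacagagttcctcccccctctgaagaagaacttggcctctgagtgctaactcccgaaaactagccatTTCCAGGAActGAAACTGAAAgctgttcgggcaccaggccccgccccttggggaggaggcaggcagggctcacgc
Igtp (chr11:58199356-58199555, plus strand): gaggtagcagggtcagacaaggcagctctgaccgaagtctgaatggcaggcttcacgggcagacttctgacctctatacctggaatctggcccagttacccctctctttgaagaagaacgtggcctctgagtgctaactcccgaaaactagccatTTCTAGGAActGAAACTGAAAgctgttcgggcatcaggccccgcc
Irgm1 (chr11:48871421-48871620, minus strand): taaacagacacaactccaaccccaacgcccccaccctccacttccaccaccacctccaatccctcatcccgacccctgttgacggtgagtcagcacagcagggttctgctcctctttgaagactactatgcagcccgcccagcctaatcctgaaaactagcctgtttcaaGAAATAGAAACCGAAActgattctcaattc
Gbp7 (chr3:142530136-142530335, plus strand): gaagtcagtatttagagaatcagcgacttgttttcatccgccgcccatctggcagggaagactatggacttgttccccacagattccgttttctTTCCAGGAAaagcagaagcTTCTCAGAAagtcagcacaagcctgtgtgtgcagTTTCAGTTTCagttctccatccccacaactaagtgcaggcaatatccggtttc
Gbp3 (chr3:142559844-142560043, plus strand): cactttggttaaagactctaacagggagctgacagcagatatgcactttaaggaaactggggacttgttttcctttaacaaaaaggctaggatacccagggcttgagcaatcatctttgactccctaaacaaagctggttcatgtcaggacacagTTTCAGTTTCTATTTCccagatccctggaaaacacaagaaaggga
The Irgm2 and Igtp stretches were alike at 118 of 170 bases (69.4%) when shifted by 30 bases, with an unbroken identical run of 40 bases. Every other pair of searched members reached at most 38.5%. In both, 2 bases separate the gamma-activated site from the interferon-stimulated response element that follows it. The same spacing was found upstream of Tgtp1 and Tgtp2, IRG relatives outside the members. Gbp3 held 2 overlapping matches to the response element, at bases -45 to -36 and -39 to -30 counted back from the start, and a further start site of Gbp3 in the table held none. Gbp7 held 1 match to it, at -53 to -44, and 2 gamma-activated sites. A match is a description of letters and not a shown binding site.

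The 6 libraries held between 10760625 and 10987584 expected counts each, the authors' estimates of reads per gene, and the groups could be told apart by the targeted gene. Aldh2 stood at 241 ± 6.83 FPKM (a read count scaled to transcript length and library size) as mean ± SD of the 3 LKO libraries, and at 7.13 ± 0.181 in those of DKO, which is 2.96% of the LKO level. Its log2 fold change, DKO over LKO throughout, was -5.01 ± 0.06 SE in edgeR (adjusted p = 4e-24). The macrophage genes Lyz2 (mean of 6105 and 7616 FPKM in LKO and DKO), Adgre1 (1938 and 1755) and Csf1r (365 and 484) were high in both groups.

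Of the 10 GTPases, 4 rose in DKO (Iigp1, Irgm1, Irgm2 and Gbp6), 1 fell (Gbp3) and 5 did not pass an edgeR adjusted p of 0.05 (Gbp2, Gbp5, Gbp7, Gbp9 and Igtp). Among all 11809 genes tested, 14.3% passed, 7.42% as higher and 6.88% as lower in DKO. The median log2 fold change was 0.46 over the 4 IRG members and 0.08 over the 6 GBP members, against 0.00 over all genes tested. In FPKM the groups did not overlap for 7 members, 6 of them higher in DKO, where 29.6% of all tested genes did not overlap, 13.6% higher and 16.0% lower. A call with a fold of at least 1.5 was reached by 1 member, Iigp1, against 3.38% of tested genes. The calls of Iigp1, Irgm1 and Irgm2 were kept in each of the 17 alternative fits, while those of Gbp6 and Gbp3 were lost in 11 and 10 of them.

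**Figure D1:**
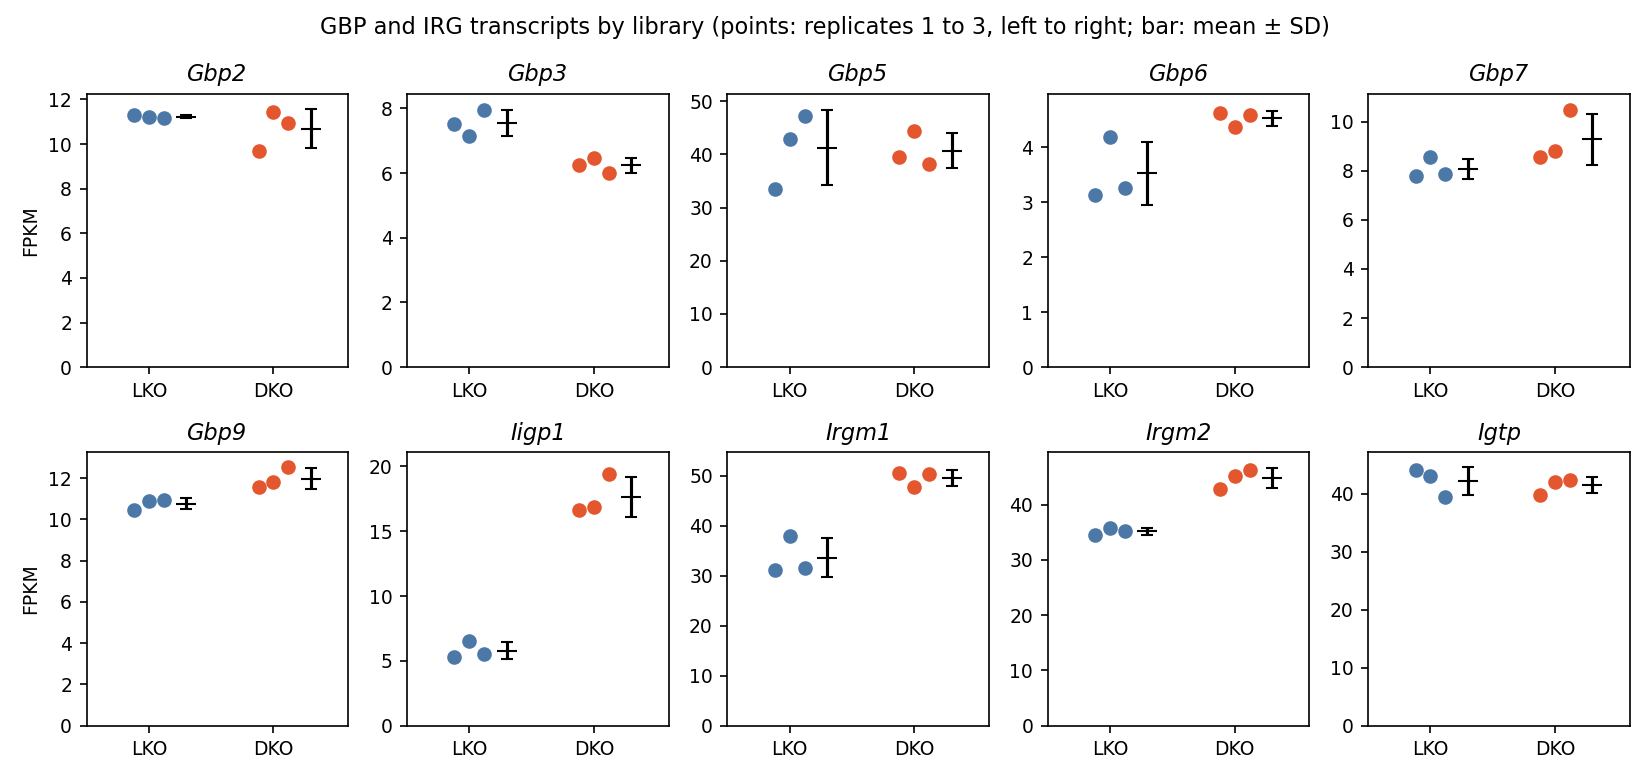
FPKM of each member in every library, with LKO in blue and DKO in red, points in the order of replicates 1 to 3, and a bar for the mean ± SD of 3 libraries on axes that start at 0. The DKO points of Iigp1, Irgm1 and Irgm2 lie above all LKO points, those of Gbp3 below them, and those of Gbp2, Gbp5 and Igtp are mixed with them.

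Iigp1, the effector IRG that coats the vacuoles of intracellular parasites, changed most. It was at 5.31, 6.55 and 5.53 FPKM in LKO replicates 1, 2 and 3 and at 16.60, 16.87 and 19.39 in the DKO replicates. The lowest DKO library was thus well above the highest LKO library, and LKO replicate 2 and DKO replicate 3 were the high ones of their groups. The rise was 3.04-fold with a 95% interval of 2.70 to 3.44 (edgeR adjusted p = 1.07e-11), or 1.61 ± 0.08 SE on the log2 scale. It rested on between 177 and 637 expected counts per library.

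The 3 regulatory IRG genes, whose proteins keep effectors such as Iigp1 off the cell's own membranes, did not move as a block. Irgm1, which is also tied to autophagy and mitochondrial upkeep, was at 31.10, 38.04 and 31.61 FPKM in LKO and at 50.50, 47.72 and 50.34 in DKO. The groups did not overlap, with LKO replicate 2 closest to DKO, and the rise was 1.49-fold (log2 fold change 0.57 ± 0.07 SE, edgeR adjusted p = 2.19e-06). Irgm2, a Golgi-associated member, was at 34.53, 35.78 and 35.19 FPKM in LKO and at 42.81, 45.12 and 46.34 in DKO. Its LKO libraries were close together and all lay below DKO, for a rise of 1.28-fold (log2 fold change 0.36 ± 0.05 SE, edgeR adjusted p = 1.84e-05). Igtp, which resides on the endoplasmic reticulum and lipid droplets, was at 44.15, 43.15 and 39.45 FPKM in LKO and at 39.90, 42.14 and 42.43 in DKO. Its groups overlapped, and the fold of 0.989 had a 95% interval of 0.911 to 1.07 (edgeR adjusted p = 0.911).

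Because all members are measured in the same library, ratios between them do not depend on how libraries are scaled. Irgm2 over Igtp, the pair that shares most promoter sequence among the searched members, was 0.782, 0.829 and 0.892 in LKO and 1.07, 1.07 and 1.09 in DKO. Irgm1 over Igtp was 0.704, 0.882 and 0.801 in LKO and 1.27, 1.13 and 1.19 in DKO. Both ratios crossed 1, with Igtp the most abundant of the 3 transcripts per length in every LKO library and the least abundant in every DKO library. These ratios were picked after the values had been seen. An exact two-sided permutation test over libraries gave p = 0.1 for each, which is as low as this design can reach.

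**Figure D2:**
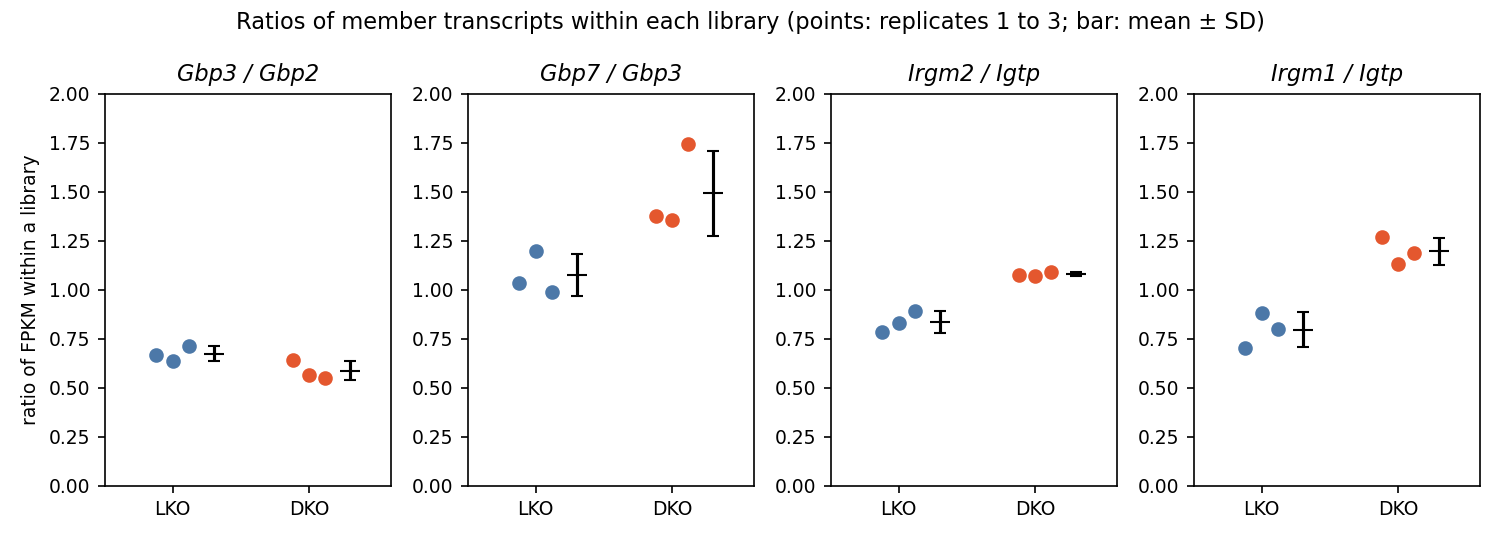
Ratios of FPKM between 2 members within each library, with LKO in blue, DKO in red and bars for the mean ± SD of 3 libraries. Gbp3 over Gbp2 overlaps between groups, while Gbp7 over Gbp3, Irgm2 over Igtp and Irgm1 over Igtp are higher in all DKO libraries than in all LKO libraries.

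The GBP members moved little and in different directions. Gbp6 was at 3.13, 4.18 and 3.25 FPKM in LKO and at 4.61, 4.37 and 4.58 in DKO, the lowest level per length among the members in both groups. LKO replicate 2 came close to DKO, and the rise was 1.29-fold (log2 fold change 0.37 ± 0.11 SE, edgeR adjusted p = 0.0192). DESeq2 did not call Gbp6 (adjusted p = 0.0671). Leaving out LKO replicate 1 or 3 raised the edgeR adjusted p to 0.0891 or 0.0882, and leaving out DKO replicate 1 or 3 raised it to 0.0682 or 0.0595, each past the threshold. Limma on log2(FPKM + 1) did not call it either (adjusted p = 0.0897).

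Gbp3 was the single member lower in DKO, at 7.53, 7.15 and 7.96 FPKM in LKO and at 6.24, 6.48 and 6.01 in DKO. The groups did not overlap, and the level in DKO was 0.833 of that in LKO, with a 95% interval of 0.733 to 0.946 (log2 fold change -0.26 ± 0.09 SE). Its edgeR adjusted p of 0.0497 lay at the threshold and passed it upward when any library was left out, at 0.0886, 0.0556 and 0.159 without LKO replicates 1, 2 and 3 and at 0.111, 0.0782 and 0.164 without DKO replicates 1, 2 and 3. DESeq2 did not call it (adjusted p = 0.224). Set against Gbp2, the test chosen for this gene, the ratio was 0.666, 0.637 and 0.713 in LKO and 0.643, 0.566 and 0.550 in DKO. The groups overlapped in that ratio (exact two-sided permutation p = 0.2).

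Gbp7, linked to assembly of the phagocyte oxidase, lies next to Gbp3 in the GBP cluster of chromosome 3. It was at 7.80, 8.55 and 7.87 FPKM in LKO and at 8.57, 8.79 and 10.47 in DKO, where the lowest DKO and highest LKO library nearly met. It did not pass (1.16-fold, edgeR adjusted p = 0.0625), although it did without DKO replicate 1 (0.0407). Gbp7 over Gbp3 was 1.04, 1.20 and 0.989 in LKO and 1.37, 1.36 and 1.74 in DKO, with no overlap (exact permutation p = 0.1, two-sided, a ratio also picked after its values were seen). Gbp9 was at 10.44, 10.89 and 10.94 FPKM in LKO and at 11.55, 11.83 and 12.53 in DKO. All its DKO libraries were above LKO by a small margin that did not pass (1.12-fold, edgeR adjusted p = 0.0955).

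Gbp5, which promotes inflammasome assembly, and Gbp2, a GBP of parasite vacuoles, showed no difference past the threshold. Gbp5 was at 33.59, 42.98 and 47.27 FPKM in LKO and at 39.49, 44.39 and 38.24 in DKO, so that the spread among the LKO libraries was wider than the distance between the group means of 41.3 and 40.7. Gbp2 was at 11.31, 11.23 and 11.16 FPKM in LKO and at 9.71, 11.45 and 10.93 in DKO. The 95% interval of the DKO over LKO fold was 0.881 to 1.12 for Gbp5 (edgeR adjusted p = 0.969) and 0.859 to 1.07 for Gbp2 (0.686).

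Ordered by level per length, the members split into an abundant and a scarce set in both groups. In LKO the order was Igtp (42.3 ± 2.48 FPKM), Gbp5 (41.3 ± 7.00), Irgm2 (35.2 ± 0.625), Irgm1 (33.6 ± 3.87), Gbp2 (11.2 ± 0.0751), Gbp9 (10.8 ± 0.275), Gbp7 (8.07 ± 0.414), Gbp3 (7.55 ± 0.405), Iigp1 (5.80 ± 0.662) and Gbp6 (3.52 ± 0.575), as mean ± SD of 3 libraries. The first 4 overlapped in turn with their neighbours in that order, as did Gbp7 and Gbp3, while the other neighbouring pairs did not overlap. In DKO the order opened with Irgm1 (49.5 ± 1.56), Irgm2 (44.8 ± 1.79), Igtp (41.5 ± 1.38) and Gbp5 (40.7 ± 3.25), and Iigp1 (17.6 ± 1.54) had moved from ninth to the fifth place. There only Igtp with Gbp5 and Gbp2 with Gbp7 overlapped among neighbours. The summed level of the 4 IRG members was between 112 and 124 FPKM in LKO and between 150 and 159 in DKO, with no overlap. That of the 6 GBP members was between 73.8 and 88.45 in LKO and between 80.2 and 87.3 in DKO, with the groups overlapping.

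Libraries of a group differed among themselves in these genes, and by median in the same order as in type I interferon targets. Against the mean of their own group on the log2(CPM + 1) scale, 9 of the 10 members were above it in LKO replicate 2 and 3 in LKO replicate 1. In DKO replicate 3 it was 8 members, and 2 in DKO replicate 1. Of 22 tested targets of type I interferon, such as Ifit1 and Isg15, 21 were above the LKO mean in replicate 2 and none in replicate 1, and 21 were above the DKO mean in replicate 3. The remaining target in LKO, Ifi44l, was listed at 0 in all 3 libraries. The median of these targets was 0.16 above the group mean in LKO replicate 2 and 0.12 below it in LKO replicate 1, against a median log2 fold change between the groups of 0.62. High values in LKO replicate 2 and DKO replicate 3 were not particular to type I targets. Above the group mean there were 17 and 14 of 19 tested interferon-gamma targets and 8 and 7 of 9 macrophage markers. Of 11 tested neutrophil markers it was 5 in each of the 2 libraries. It was 10 and 11 of 14 tested relatives of the members, and 5 and 4 of 12 inflammasome genes. Of 7 tested stromal markers it was 5 and 0, and of 5 tested B cell markers 3 and 0. The share over all tested genes was not counted. Without LKO replicate 2 the log2 fold changes were 1.70 for Iigp1, 0.67 for Irgm1 and 0.37 for Irgm2, and all 3 calls were kept.

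**Figure D3:**
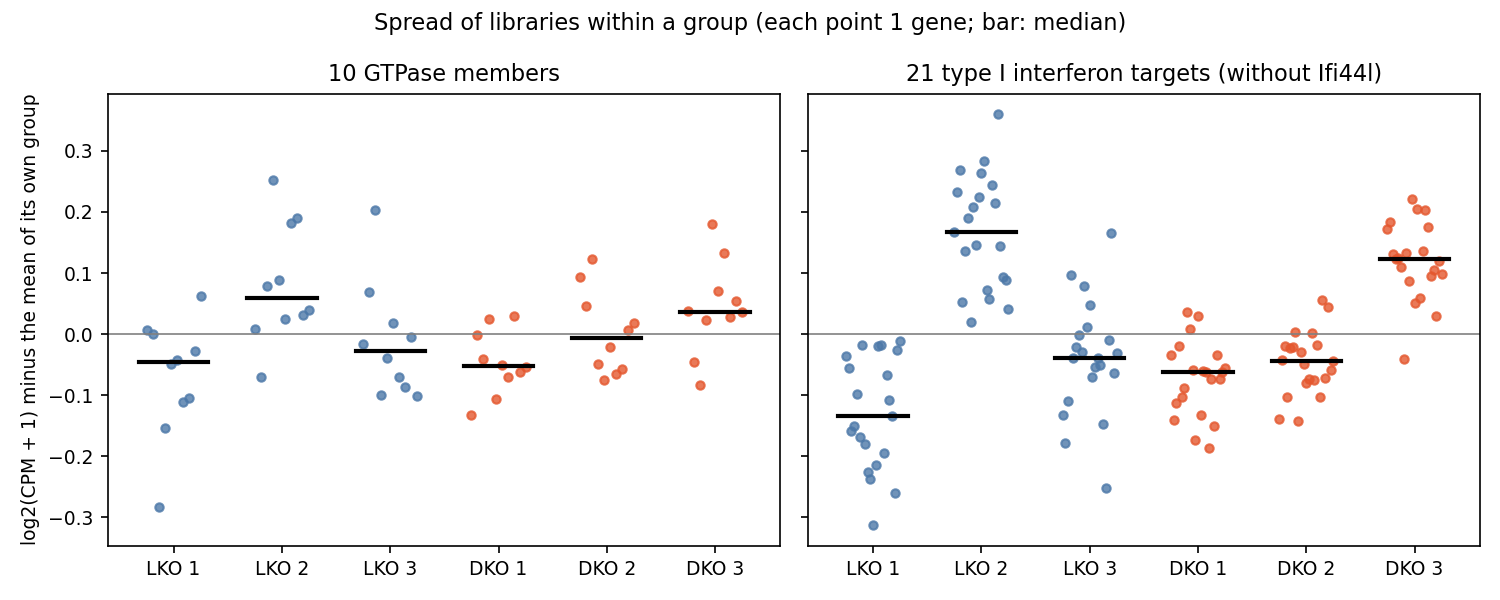
Each point is 1 gene in 1 library, plotted as log2(CPM + 1) minus the mean of its own group, for the 10 members (left) and 21 type I interferon targets (right, without Ifi44l), with a bar at the median. The medians of LKO replicate 2 and DKO replicate 3 lie above 0 in both panels.

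As a description over 6 libraries, the members were compared with the mean of the other members, each standardised on log2 CPM. Pearson's r was between 0.78 and 0.88 for Gbp6, Gbp7, Gbp9, Iigp1, Irgm1 and Irgm2, between -0.13 and 0.01 for Gbp2, Gbp5 and Igtp, and -0.89 for Gbp3. These values include the difference between groups, and the points share library depth and scaling. Of 10811 other genes with a mean CPM of at least 2, the 5 whose pattern was most like the members' mean were Abcc10 (r = 0.998), Zcchc2 (0.993), Pcdhgc3 (0.993), St6galnac4 (0.985) and Cnnm4 (0.982). Correlations above 0.95 were found for 61 genes, and of the 5 named, Pcdhgc3 alone passed the test between groups (edgeR adjusted p = 0.015, and 0.0682 in DESeq2). That call was not kept with LKO replicate 1 or 3 left out (edgeR adjusted p of 0.064 or 0.0601), nor with DKO replicate 2 or 3 left out (0.055 or 0.104).

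The relatives of the members outside the list were covered by a list of 18 genes, of which 14 were tested, 8 rose and 1 fell in edgeR (median 0.42 on the log2 scale). The largest rise was of Gbp2b, also known as Gbp1, which lies between Gbp3 and Gbp2 in gene order (GRCm38). It was at 1.0, 0.83 and 0.97 FPKM in LKO and at 3.49, 3.71 and 3.77 in DKO, a low transcript that rose 3.94-fold (95% interval 3.14 to 4.94, edgeR adjusted p = 9.28e-09). Gbp8, beside Gbp9 on chromosome 5, was at 8.78, 8.72 and 7.86 FPKM in LKO and at 5.67, 6.19 and 4.93 in DKO. It fell to 0.668 of the LKO level (95% interval 0.579 to 0.771, edgeR adjusted p = 0.000243), the largest fall among the GBP genes tested, and the call was kept in all 17 alternative fits. In the chromosome 3 cluster Gbp2b thus rose next to Gbp3, whose fall lay at the threshold and was lost in 10 of the 17 alternative fits. On chromosome 5, which also carries the targeted Aldh2, Gbp8 fell next to Gbp9, which did not pass.

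Of the other IRG relatives, Tgtp2 (Irgb6), an effector, was at 11.19, 14.80 and 11.22 FPKM in LKO and at 21.52, 18.80 and 24.50 in DKO (log2 fold change 0.81 ± 0.10 SE, edgeR adjusted p = 3.93e-06). Ifi47 (Irgd) was at 35.27, 34.92 and 34.02 and at 50.05, 44.67 and 51.86 (log2 fold change 0.49). Gm12250 (Irgb10), the gene before Igtp in order, had a log2 fold change of 0.44, and Gm4951 and Gm4841, relatives of Iigp1 in its neighbourhood, had 0.61 and 0.40, and all of these passed. Gvin1 and Gm4070, very large interferon-inducible GTPases that share nearly all their sequence, had 0.57 and 0.51. Not passing were Gbp4 (log2 fold change 0.15), 9930111J21Rik1 (0.12), 9930111J21Rik2 (0.10), F830016B08Rik (0.02) and Irgq, a family member that is not known as interferon-inducible (0.00). Tgtp1, Gbp11 and Irgc1 were too low to be tested, each under 0.25 FPKM in every library, and no library listed Gbp10.

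**Figure D4:**
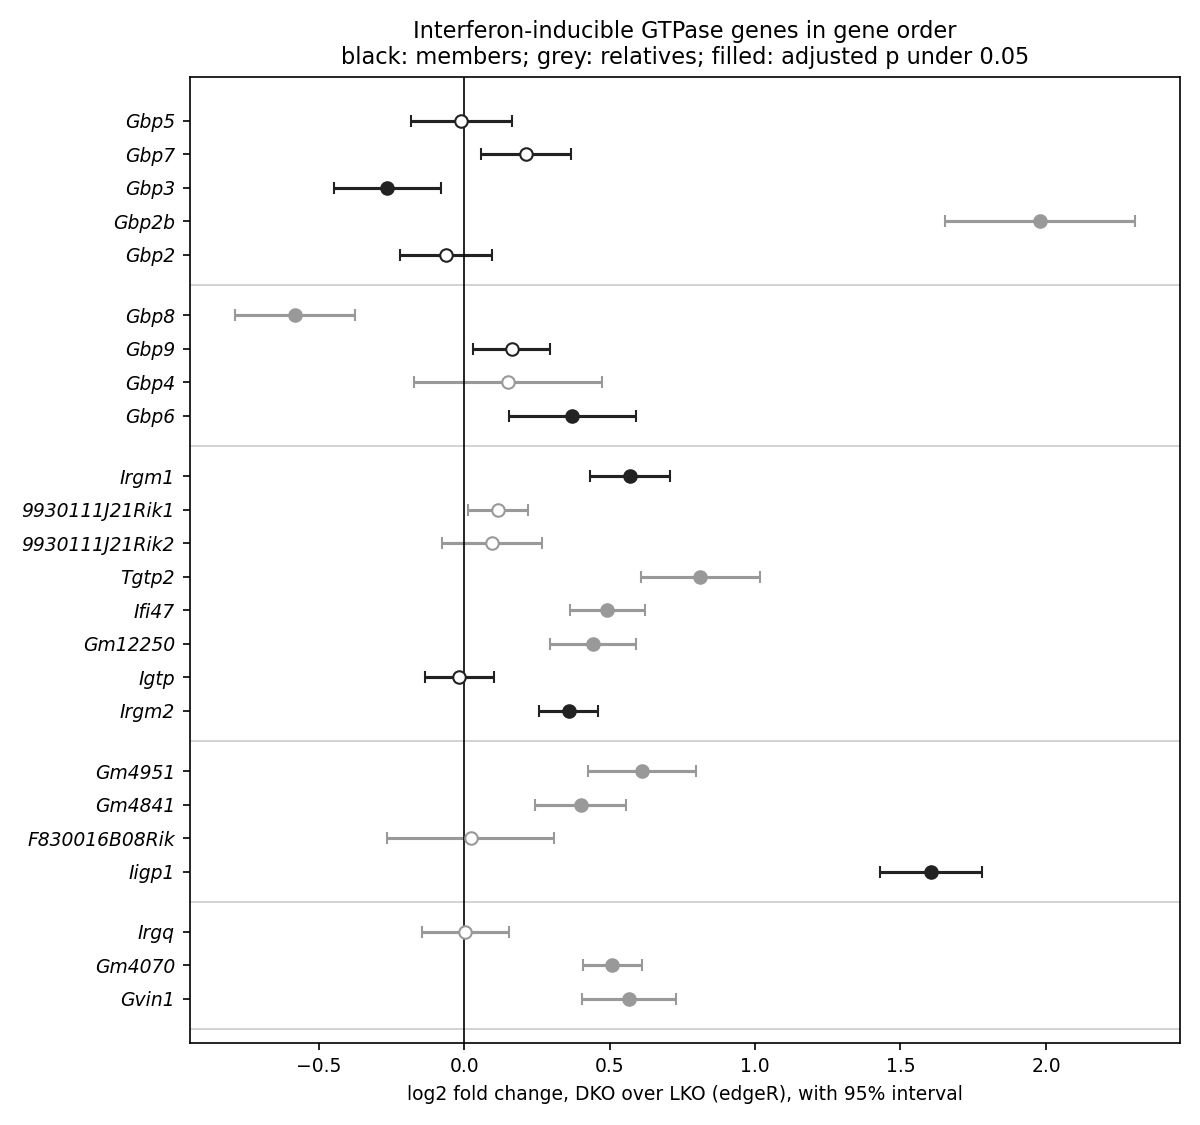
Log2 fold change, DKO over LKO, with 95% intervals from edgeR, for members (black) and relatives (grey) in gene order, with horizontal lines between the chromosomes and filled points for an adjusted p under 0.05. Gbp2b, at 1.98, stands between Gbp3 at -0.26 and Gbp2 at -0.06, and Igtp, at -0.02, stands between Gm12250 at 0.44 and Irgm2 at 0.36.

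Reads can be hard to assign among these genes, since the families arose by duplication. None of the members' expected counts was a whole number (to within 0.005) in any library, whereas those of Aldh2 were whole in all 6. In GENCODE M21 transcripts, 70.7% of the 50-base words of Gbp6 also occurred in another gene, chiefly the annotated gene Gm43302 (65.0%), and 73.3% of those of Gbp10 occurred in Gbp6. The level of Gbp6 may thus include reads of near-identical copies and is uncertain. The share was 12.7% for Gbp7, 11.8% for Igtp, all of it shared with Irgm2, 8.05% for Gbp9 and 7.83% for Irgm2. It was 3.75% for Gbp3, 2.03% for Gbp2, 1.69% for Iigp1, 1.44% for Gbp5 and 0.379% for Irgm1. Among the relatives it was 86.6% for Tgtp2, mostly with Tgtp1, above 97% for Gvin1 and Gm4070, 18.1% for Gbp8 and 1.84% for Gbp2b. For 9930111J21Rik1 it was 83.2% and for 9930111J21Rik2 59.8%, mostly with each other, so their separate levels are uncertain.

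Among the genes upstream of the GTPases was Ifng, which encodes interferon-gamma. It stood at 0.08 FPKM in LKO replicate 3 and at 0 in the other 5 libraries. No library listed Ifnb1. Of 20 tested genes of interferon ligands, receptors and signalling, 8 rose and none fell in edgeR, and 12 did not pass; at an unadjusted p under 0.05, 1 was lower, DESeq2 called none lower and limma called 1 lower. Among receptors, Ifngr1 (93.90, 98.52 and 91.26 FPKM in LKO, 117.00, 111.19 and 121.29 in DKO) and Ifnar2 (log2 fold change 0.21) rose, while Ifngr2 (0.06) and Ifnar1 (0.11) did not pass. Ifnar1 did so without DKO replicate 1 (edgeR adjusted p = 0.048).

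Several transcription factors of interferon signalling rose beside the IRG genes. Stat2 rose by a log2 fold change of 0.53, Irf9 by 0.26 and Irf8 by 0.17, and Irf7, itself a target of type I interferon, by 1.24. Irf1, the factor most tied to interferon-gamma and needed for full GBP induction, was at 33.22, 33.69 and 32.13 FPKM in LKO and at 35.44, 34.70 and 35.74 in DKO, and it did not pass (edgeR adjusted p = 0.22). Its DKO libraries all lay above LKO, with a fold of 1.08. The inhibitor Usp18 rose (0.56), while Socs1 (0.37, edgeR adjusted p = 0.302) did not pass.

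Other targets of the 2 interferon types gave a frame for the members. Of 22 type I targets, 21 rose and Mx2 did not pass (edgeR adjusted p = 0.183), and their median was 0.62 on the log2 scale. DESeq2 and limma each called 20 of them higher, none of the 3 tools called any lower, and none was lower at an unadjusted p under 0.05. Those with the smallest p were Ifi44 (log2 fold change 3.16), Oasl1 (1.58), Ifit3 (0.99) and Ifi44l, which was listed at 0 in LKO and between 15.6 and 21.7 FPKM in DKO. Of 19 tested interferon-gamma targets, 7 rose, 1 fell and 11 did not pass, with a median of 0.14. Tap1 (0.55), Fcgr1 (0.52), Nlrc5 (0.47) and Tapbp (0.40), which serve antigen presentation or bind antibody, were those that rose with the smallest p. Ciita, the master regulator of MHC class II, fell from a low level (log2 fold change -0.86, edgeR adjusted p = 0.0225). DESeq2 did not call it (adjusted p = 0.0926), and its edgeR adjusted p rose to 0.104 or 0.0698 with LKO replicate 2 or 3 left out and to 0.132 with DKO replicate 2 left out. The chemokine gene Cxcl9 stayed under 0.2 FPKM in every library, and Nos2, the inducible nitric oxide synthase, under 0.1. Others of this list at low levels moved, and Acod1 rose (0.98, edgeR adjusted p = 0.0177). Cxcl10 (0.92, edgeR adjusted p = 0.0522) and Batf2 (0.50, 0.0856) lay higher in all DKO libraries but did not pass. Cxcl11 (-0.31, edgeR adjusted p = 0.659) lay lower by mean with the groups overlapping. The median of the 10 members was 0.19, and no test compared these medians.

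**Figure D5:**
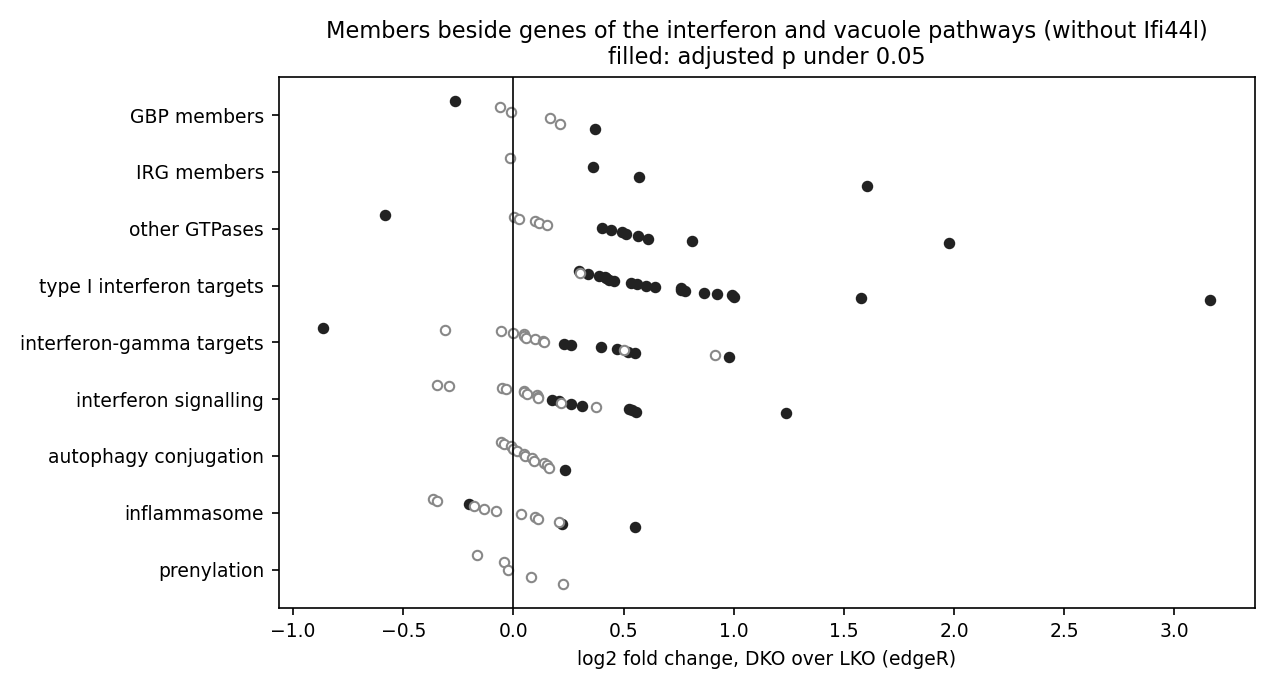
Log2 fold change of each tested gene, DKO over LKO, by gene list, with filled points for an edgeR adjusted p under 0.05 and Ifi44l left out because it was listed at 0 in LKO. The type I targets all lie to the right of 0, the GBP members lie on both sides of it, and 3 of the 4 IRG members lie to the right.

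Lists of genes that act with or after the GTPases were also counted. Of 13 genes of the autophagy conjugation system and ubiquitin factors, which help place GBP and IRG proteins on vacuoles, Sqstm1, a ubiquitin-binding cargo receptor, rose (166 to 193 FPKM, log2 fold change 0.23, edgeR adjusted p = 0.000849). The other 12 did not pass in either direction, those with the smallest p being Gabarapl1 (0.16), Trim21 (0.14) and Traf6 (0.09), and no gene of the list was lower at an unadjusted p under 0.05. Gabarapl1 passed without DKO replicate 2 (edgeR adjusted p = 0.0478). Of 12 inflammasome and pyroptosis genes, 2 rose and 1 fell in edgeR. DESeq2 called 1 higher and 1 lower, and limma called 1 higher and 3 lower. At an unadjusted edgeR p under 0.05, 3 were higher and 5 lower. Il1b (log2 fold change -0.36, edgeR adjusted p = 0.0523) and Il18 (-0.35, 0.0747) lay lower in all DKO libraries than in LKO but did not pass. Ninj1, which ruptures the plasma membrane of dying cells, rose from 156 to 227 FPKM (0.55, edgeR adjusted p = 1.85e-07). Naip5, a sensor of flagellin, rose (0.22, edgeR adjusted p = 0.0346), a call lost in 13 of 17 alternative fits, among them those without LKO replicates 1 or 2 or any DKO replicate (edgeR adjusted p of 0.074 to 0.141). Casp1, the inflammasome protease, fell (-0.20, edgeR adjusted p = 0.017), a call that went when LKO replicate 1 or 2 was left out (0.0511 or 0.0587) or DKO replicate 3 (0.0783). Pycard, the inflammasome adaptor, was at 100.09, 100.48 and 99.49 FPKM in LKO and at 94.0, 89.94 and 87.21 in DKO, just missing the threshold (edgeR adjusted p = 0.0501), and it passed in 4 of 17 alternative fits, which were edgeR without DKO replicate 1 (0.0396), with DESeq2 size factors (0.0476) and with library totals (0.0327), and limma on TPM (0.0434). Casp4, which GBPs help to activate, was at 11.8 and 13.5 FPKM and did not pass (edgeR adjusted p = 0.13). None of the 5 prenylation and CaaX-processing enzymes, which lipidate some GBPs, passed in edgeR, DESeq2 or limma, though at an unadjusted p under 0.05 Fnta was lower (-0.17) and Rce1 higher (0.23).

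Markers of macrophages and of other marrow cells moved in the same libraries as the GTPases, and in bulk RNA fewer cells of a type cannot be told from less RNA per cell. Of 9 macrophage markers, 5 rose (Csf1r, Lyz2, Mertk, Mrc1 and Fcgr1, the last also counted among the interferon-gamma targets) and 1, Adgre1, fell in edgeR, though not in limma. Their median was 0.33 on the log2 scale, and their summed level was between 9491 and 10226 FPKM in LKO and between 10755 and 11973 in DKO. Most of that sum was Lyz2, at 5731 to 6386 FPKM in LKO and 6973 to 8101 in DKO, so it says little of the other markers. Cd68, Itgam and Cd14 did not pass. Of 11 tested neutrophil markers 8 fell in DKO, with the summed level of 13 markers between 562 and 623 FPKM in LKO and between 359 and 401 in DKO. All 5 tested B cell markers fell, with the summed level of 7 between 103 and 115 in LKO and between 78.7 and 86.5 in DKO. Stromal markers rose in 6 of 7 tested, with a summed level of 10 between 40.5 and 46.6 in LKO and between 67.1 and 91.1 in DKO. Of the 10 T and NK cell markers present, which would mark makers of interferon-gamma, 3 were tested and 1, Cd4, fell at an edgeR adjusted p of 0.0472, while DESeq2 and limma called none of them lower. Cd3d went the other way, from a mean of 0.90 FPKM in LKO to 1.43 in DKO without overlap, but did not pass (edgeR adjusted p = 0.173, unadjusted 0.0417). Cd8a did not pass either (edgeR adjusted p = 0.898). The summed level of the 10 markers was between 9.37 and 10.3 FPKM in LKO and between 8.23 and 9.71 in DKO, most of it Cd4. Ncr1, Prf1, Gzmb, Cd3e and Nkg7 had means under 0.2 in both groups. The untested Cd3g had means of 0.123 in LKO and 0.27 in DKO, and the untested Klrb1c 0.233 and 0.0567. Dendritic cell markers other than Bst2, itself a type I target, summed to at most 2.11 FPKM in any library. The part of these shifts in the levels of the GTPases was not tested.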

How the data were processed

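Each library has 1 table, whose columns are an expected count, FPKM and transcript length per gene, per the file headers. The expected count is an estimate of reads made by the authors and deposited unscaled. FPKM, as the authors deposited it, is scaled to length and depth. The submitters' processing notes name Bowtie 0.12.2 and the build mm8. Which program counted reads, and whether by strand, is not given in the sources used here. Genes absent from a table were set to 0. Symbols came from a RefSeq table of GRCm38 and matched 16832 of 16871 genes.

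The members and lists were chosen with earlier results of these data known. Rounded expected counts went into edgeR 4.0.16 under R 4.3.3, using its quasi-likelihood test (filterByExpr, TMM, no block), adjusted by Benjamini-Hochberg over 11809 genes at 0.05. Standard errors and 95% intervals follow from the F statistic of each gene. Counts of libraries within a group differed by more than sampling noise (chi-square over degrees of freedom of 1.68 to 3.71, against 8.30 to 14.9 across groups), so no library was taken as deposited more than once; whether the cultures were separate is not shown by this. Alternatives were DESeq2 1.42.0, other scalings and filters, a replicate block, limma 3.58.1 on log2(FPKM + pseudocount), which understates the change of low genes, and each library left out. The code was tested on simulated data. Named were the members, Aldh2, all relatives tested, up to 4 genes of smallest p of each list, all genes of a direction with 5 or fewer, Irf1, Ifng, Ifngr1 and Ifnar1, and the 5 genes of most alike pattern. Other genes named (such as Irf8, Irf9, Ifnar2, Ifngr2, Socs1, Cxcl9, Nos2, Casp4, Mx2 and cell markers) were chosen after their values were seen. 1 gene that the rule names is not reported here.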

Additional observations from a re-analysis of the deposited data

How the results depend on the processing

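All values here are edgeR unless named. The counts of called genes over the whole table, 876 higher and 813 lower, moved with the tool and threshold. Limma on log2(FPKM + 1) called 561 higher, with a pseudocount of 0.1 it called 557, with 5 it called 563, and on TPM 567. Without a filter limma called 425 higher and 382 lower, and after quantile normalization 575 and 533. An adjusted p under 0.01 left 553 and 452 genes, and a fold of at least 1.5 left 213 and 186. With each library left out they ranged from 625 to 753 higher and from 550 to 730 lower. The count of members called higher, 4, was 1 at a fold of at least 1.5, and 3 to 4 with each library left out. The count called lower, 1, was 0 in DESeq2, without a count filter, with the replicate block, in limma without a filter, at an adjusted p under 0.01, at 1.5-fold, and in each fit with a library left out (0 to 0). The causes were not tested, and fits with a library left out hold fewer samples. Members that did not pass changed sign at values near 0: Gbp2 (log2 fold change -0.1099 to 0.0048), Gbp5 (-0.1387 to 0.0964) and Igtp (-0.0656 to 0.0159) with a library left out. F830016B08Rik (-0.0937 to 0.1527) and Irgq (-0.0591 to 0.075) did so likewise, and Irgq also with library totals (-0.0067), in limma (-0.008, with pseudocounts of 0.1 and 5 at -0.0093 and -0.0048, without a filter at -0.008) and on TPM (-0.0086). Same-numbered libraries did not deviate together (r of -0.03, -0.09 and -0.04), so the numbers were not taken as pairs; the fit with the replicate block called 810 genes higher and 743 lower, and 4 and 0 members. The log2 fold change of Gbp3 was -0.26 with the block (adjusted p = 0.0722), that of Aldh2 -5.01. No library correlated best with its own number. The median log2 fold change over all genes lay between -0.0108 and 0.0017 in every fit. With 3 libraries a group, the intervals of members that did not pass give the changes that the data still allow.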
